A study of Mus musculus with 2 samples.

Results

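The heat shock protein and chaperone genes were taken by symbol: those that begin with Hspa, Hspb, Hspd, Hspe, Hsph or Hsp90, and those that begin with Dnaj. They comprised 68 of the 17176 genes named on the arrays and were read by 116 of 41174 probes. The same rule picks 74 protein-coding genes in the mouse gene table, and Dnajb5, Dnajb11, Dnajb14, Dnajc13, Dnajc21 and Hspb9 had no named probe and were not analysed here. The RNA came from sorted spleen cells of wild-type C57B6 mice, helper T cells (CD4+) in the first sample and cytotoxic T cells (CD8+) in the other, with no treatment beyond the sort named in the labels. There was 1 one-colour Agilent array for each, so no test between cell types was possible, and precision is limited by the number of arrays. The age and number of the mice and the sort markers are not named in the labels, and the descriptions add the abbreviations CD4SP and CD8SP.

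Heat shock proteins bind unfolded or partly folded proteins and keep them from aggregating. Proteins of the Hsp70 family do so in cycles of ATP hydrolysis. J-domain proteins, encoded by the Dnaj genes, bring clients to Hsp70 and start the hydrolysis, and nucleotide exchange factors release the client. Hsp90 matures kinases and steroid receptors, among them kinases of T cell receptor signalling, and Hspd1 and Hspe1 form the folding chamber of the mitochondrial matrix. Some members are made at all times, whereas others are switched on by heat shock factor 1 when proteins unfold, and activated T cells are known to raise several of them.

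Levels are given as the processed signal, the intensity of a probe after background subtraction by the scanner software, with that software's own error for the spot. For bright probes that error was a nearly fixed share of the signal, so the error of a difference was 0.20 for most members. It is thus not a spread measured between arrays or spots. Differences are log2 values of the CD8+ array minus the CD4+ array after each array was scaled to its 75th percentile (a signal of 508 for CD4+ and 449 for CD8+), and positive values stand for more signal in CD8+ cells. Fold values come from the scaled signals and differ a little from the ratio of the printed ones. Signals of different genes are not comparable, because each probe binds its target with its own strength. In such bulk RNA, fewer cells of a type and less RNA per cell cannot be told apart.

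Most of the chaperone system was measured in both T cell types at nearly equal levels. Of the 68 members, 57 were well above background on both arrays, 5 on the CD4+ array alone, 1 on the CD8+ array alone and 5 on neither. This gives 92.6% above background on at least 1 array, against 76.0% of all named genes. Of the 17176 named genes, 11961 were above background on both arrays, 919 on the CD4+ array alone, 178 on the CD8+ array alone and 4118 on neither. A larger number on the CD4+ array alone was thus found over all genes too. Among the 57, the median difference was 0.04, beside 0.03 over the 11961 genes measured on both arrays, whose interquartile range ran from -0.18 to 0.20. Within 1.5-fold lay 48 of the 57 members (84.2%), against 85.9% of all genes. The 9 exceptions were 7 J-domain genes, the inducible Hsp70 gene Hspa1a and the exchange factor Hspbp1.

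At least 2-fold apart was 1 member higher in CD8+ cells, Dnajc15, where 1.96% of all genes measured on both arrays passed the same limit. Higher in CD4+ cells by that much were 2 members, Dnajc6 and Dnajb3, where 3.81% of all genes passed. No member measured on 1 array alone reached 2-fold as a lower bound, and with such genes included the background was 2.21% for CD8+ and 4.65% for CD4+. At 1.5-fold the CD8+ array was higher for 4 members, the other 3 being Dnajc27, Hspbp1 and Dnaja4, against a background of 5.56%. The CD4+ array was higher for 5, with Dnajc4, Hspa1a and Dnajb9 added, against 8.5%. These shares lie near the background, so the members as a set did not stand apart from other genes by their count of large differences. Beyond the error of the scanner software lay 24 of the 57 (42.1%, all genes 46.0%), and beyond 2 such errors 14 (24.6%, all genes 21.3%). With that error nearly the same for most members, these counts act as fold limits and not as a test.

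**Figure D1:**
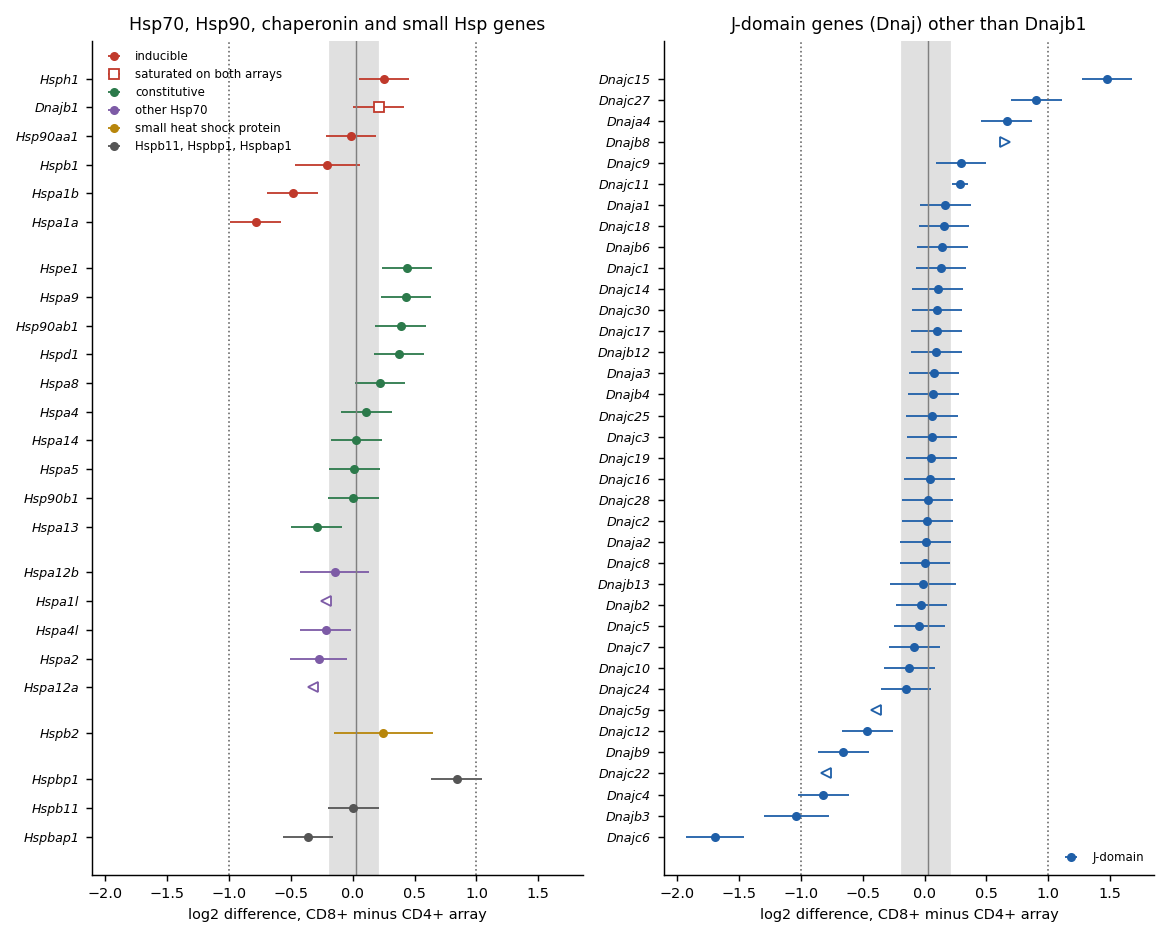
Log2 difference (CD8+ minus CD4+ array) of each member, by class, with bars of 1 software error. Open triangles are lower bounds for genes above background on 1 array alone, the open square is a probe saturated on both arrays, the grey band and line are the interquartile range and median of all genes, and dotted lines mark 2-fold. Dnajc15 at 1.47 and Dnajc6 at -1.69 lie at the ends.

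The inducible chaperones did not move as a block. The pair of inducible Hsp70 genes, Hspa1a and Hspa1b, had higher signals in CD4+ cells, whereas Hsph1, Dnajb1, Hsp90aa1 and Hspb1 differed by at most 0.26. Hspa1a, the main Hsp70 made under stress, had a signal of 1541 ± 154 in CD4+ cells and 790 ± 79.1 in CD8+ cells, a difference of -0.78 ± 0.20 (1.72-fold). Its other probe read 1140 and 587, again a difference of -0.78. The CD4+ value was the higher on both probes, and 5.61% of all genes lay at least as far on the CD4+ side. Hspa1b, the neighbouring near-identical copy, read 329 ± 33.0 and 207 ± 21.0, a difference of -0.49 ± 0.21 (1.40-fold), and its dimmer probe read 99.5 and 51.2 (-0.78). Whether these probes separate the copies was not tested, so the 4 probes are not independent readings of separate genes.

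The remaining inducible members gave small values of either sign. Hsph1, the Hsp110 exchange factor for Hsp70, read 20240 ± 2024 in CD4+ and 21321 ± 2132 in CD8+ cells, a difference of 0.25 ± 0.20. Dnajb1, the J protein that pairs with inducible Hsp70, was saturated on both arrays at its brightest probe, so the size of that difference is not known, and its unsaturated probe read 6713 and 7080 (0.26). Hsp90aa1, the inducible cytosolic Hsp90, read 62436 ± 6244 and 54666 ± 5467, a difference of -0.01 ± 0.20. Its 1 probe was not flagged as saturated, but its CD4+ signal was above that of the saturated Dnajb1 probe (59211). The size of the Hsp90aa1 difference is therefore uncertain, and quantile normalization gave -0.18. Hspb1, a small heat shock protein that holds unfolded clients, was dim at 45.1 ± 5.39 and 34.6 ± 4.70, a difference of -0.21 ± 0.26. None of these 4 went beyond 2 software errors. The median over the 6 inducible members was -0.11, with 2 of 6 positive, and normexp gave a median of 0.02, the series values one of 0.01.

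Heat shock factor 1 is known to bind repeats of a short unit in the start regions of its target genes, and most inducible members with a promoter entry hold a short match to it. Printed are the 250 bases upstream of the start from RefSeq, assembly GRCm38.p6, in the direction of the gene, with the heat shock element of 2 units in capitals: a match to GAANNTTC or TTCNNGAA, each of which reads the same on both strands. Hspa1a (chr17:34972157-34972406, minus strand) and Hspa1b (chr17:34959239-34959488, minus strand) are shown because both were higher in CD4+ cells, and Hsph1 (chr5:149636337-149636586, minus strand) because it also holds a match and differed in the other direction.
Hspa1a: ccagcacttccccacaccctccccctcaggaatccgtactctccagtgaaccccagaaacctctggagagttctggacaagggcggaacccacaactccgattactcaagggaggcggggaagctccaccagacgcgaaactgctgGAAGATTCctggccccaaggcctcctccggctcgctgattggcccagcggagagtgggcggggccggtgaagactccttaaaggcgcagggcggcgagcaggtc
Hspa1b: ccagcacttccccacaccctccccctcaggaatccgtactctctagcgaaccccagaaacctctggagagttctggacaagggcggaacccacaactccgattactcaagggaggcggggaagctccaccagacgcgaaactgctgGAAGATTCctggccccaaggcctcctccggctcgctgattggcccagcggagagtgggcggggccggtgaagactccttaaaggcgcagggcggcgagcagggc
Hsph1: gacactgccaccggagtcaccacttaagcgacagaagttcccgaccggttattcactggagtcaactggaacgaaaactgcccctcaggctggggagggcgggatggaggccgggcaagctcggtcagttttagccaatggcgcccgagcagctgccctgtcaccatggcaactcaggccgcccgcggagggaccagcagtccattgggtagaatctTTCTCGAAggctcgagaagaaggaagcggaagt
The Hspa1a and Hspa1b stretches shared 247 of 250 bases, and the match began 104 bases before the start in both. In Hsph1 it began 33 bases before the start. A match was found in 4 of the 5 inducible members with a promoter entry (Hspa1a, Hspa1b, Hspb1 and Hsph1, but not Dnajb1), in 14 of all 54 members with an entry (25.9%) and in 3932 of 27025 genes (14.5%). Thus genes with the same element were higher in CD4+ cells (Hspa1a, Hspa1b), higher in CD8+ cells (Dnaja4, Dnajc27) or within the error (Hspb1, Dnajb6). A match describes these letters and is not a measured site.

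**Figure D2:**
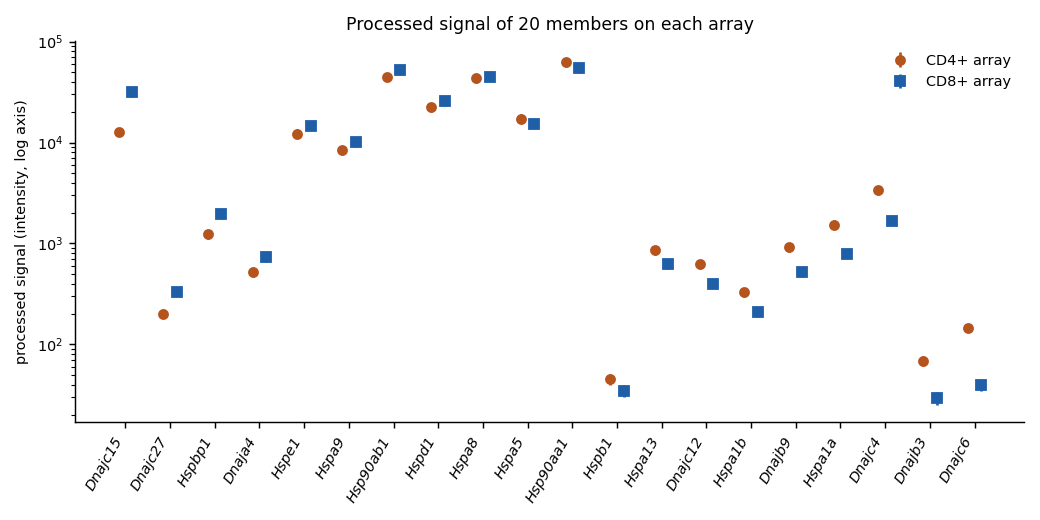
Processed signal (intensity, log axis) of 20 members on the CD4+ array (circles) and the CD8+ array (squares), before scaling, with bars of 1 software error that are mostly smaller than the symbols. The markers of a gene are to be compared with each other and not across genes. Dnajc15 is higher on the CD8+ array, and Hspa1a, Dnajc4 and Dnajc6 are higher on the CD4+ array.

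The constitutive chaperones leaned slightly to the CD8+ side. Their 10 members were all measured on both arrays and within 1.5-fold, with a median of 0.16, beside 0.03 over all genes, and a range from -0.29 to 0.44. Of the 10, 9 were positive, where 6468 of 11961 genes were. However, Hspa14, Hspa5 and Hsp90b1 were positive by at most 0.03 and changed sign in other settings. In the cytosol, Hsp90ab1, the constitutive Hsp90, read 44809 ± 4481 in CD4+ and 51748 ± 5175 in CD8+ cells, a difference of 0.39 ± 0.20 (1.31-fold). Hspa8, the constitutive Hsc70, read 43590 ± 4359 and 44826 ± 4483 (0.22 ± 0.20). These 2 abundant housekeeping chaperones were a little higher in CD8+ cells on the scaled values, by no more than 2 software errors. Hspa4, an exchange factor of the Hsp110 class, gave 0.11, and Hspa14, which acts with ribosome-bound chaperones, gave 0.03.

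The members assigned here to the mitochondrion lay on the CD8+ side. Many J-domain genes were given no compartment, among them Dnajc4 (-0.82) and Dnajc28 (0.03), so the result holds for the assigned list alone. Hspa9, Hspd1 and Hspe1 also count among the constitutive members, so the leans of these 2 groups are not separate observations. All 8 assigned members had positive differences, where 6468 of 11961 genes did, with a median of 0.33. However, Dnaja3, a matrix J protein, Dnajc19, of the protein import motor, and Dnajc30 (0.05 to 0.10) changed sign in other settings. Dnajc15, also called MCJ, a J protein of the inner mitochondrial membrane that restrains respiratory complex I, read 12796 ± 1280 in CD4+ and 31387 ± 3139 in CD8+ cells. That is a difference of 1.47 ± 0.20 (2.78-fold), and 0.95% of all genes lay at least as far on the CD8+ side. It was the largest difference of any member towards CD8+ cells, rested on 1 probe and ranged from 1.40 to 1.61 over all settings. The chaperonin genes were higher in CD8+ cells by much less. Hspe1, which encodes the Hsp10 lid, read 12249 ± 1225 and 14684 ± 1468 (0.44 ± 0.20). Hspd1, the Hsp60 chamber, read 22449 ± 2245 and 25669 ± 2567 (0.37 ± 0.20), and its dimmer probe gave 0.34. Hspa9, the Hsp70 of the matrix, read 8443 ± 844 and 10046 ± 1005 (0.43 ± 0.20), with 0.35 on its other probe. With normexp the differences of Hspe1, Hspd1 and Hspa9 stayed positive but were smaller, at 0.25, 0.19 and 0.29.

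Hspe1 and Hspd1 lie head to head and share their start region, which is shown because their differences were alike in direction and size. The Hspe1 stretch (chr1:55087898-55088147, plus strand, GRCm38.p6, RefSeq) holds 3 overlapping heat shock elements in capitals, which begin 89, 84 and 79 bases before the start.
Hspe1: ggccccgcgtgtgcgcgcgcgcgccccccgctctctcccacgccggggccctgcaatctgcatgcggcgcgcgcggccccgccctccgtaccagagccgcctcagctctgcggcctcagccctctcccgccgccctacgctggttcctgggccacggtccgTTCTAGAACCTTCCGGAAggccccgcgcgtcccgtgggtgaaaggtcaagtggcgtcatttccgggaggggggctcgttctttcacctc
Of the 300 bases that the table gives for Hspe1, 285 also lie in a stretch it gives for Hspd1. Such a run of at least 3 units (a match to GAANNTTCNNGAA or TTCNNGAANNTTC) was found for Hspd1, Hspe1 and Dnajb6 among the members (3 of 54, 5.56%), for 0 of the 5 inducible members and for 0.514% of all genes.
Dnajc11, a mitochondrial J protein, was read by a probe with 10 spots on each array, which shows the spread within an array. Its spots ranged from 199 to 225 on the CD4+ array (215 ± 9.52, SD over 10 spots) and from 204 to 259 on the CD8+ array (231 ± 14.4). The spots of the arrays overlapped before scaling, and the scaled difference was 0.29, with an SD of 0.08 over spots.

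Members of the endoplasmic reticulum were nearly level, with a median of 0.00 over 7 genes. Hspa5, the Hsp70 known as BiP, read 17297 ± 1730 in CD4+ and 15428 ± 1543 in CD8+ cells, a difference of 0.01 ± 0.20. Hsp90b1, the Hsp90 known as GRP94, read 14970 ± 1497 and 13268 ± 1327 (0.00 ± 0.20), and its dimmer probe gave -0.28. Dnajc3, which curbs a kinase of the unfolded protein response, gave 0.06, and Dnajc10, a reductase with a J domain, gave -0.12. On the brightest probe of each of these genes the difference lay within 1 software error. Hspa13, a microsomal Hsp70, was lower in CD8+ cells at 863 ± 86.4 against 623 ± 62.3 (-0.29 ± 0.20). Dnajb9, the BiP co-chaperone ERdj4, read 924 ± 92.4 and 517 ± 51.8 (-0.66 ± 0.20, 1.58-fold higher in CD4+). Its other probes gave -0.03 and 0.10, so the 3 probes of Dnajb9 disagreed and their mean was -0.20.

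The stretch before Hsp90b1 (chr10:86705445-86705694, minus strand, GRCm38.p6, RefSeq) is shown as an example of the endoplasmic reticulum stress element, CCAAT and CCACG with 9 bases between them on either strand. It holds 2 matches, in capitals, that begin 212 and 107 bases before the start, the latter on the opposite strand.
Hsp90b1: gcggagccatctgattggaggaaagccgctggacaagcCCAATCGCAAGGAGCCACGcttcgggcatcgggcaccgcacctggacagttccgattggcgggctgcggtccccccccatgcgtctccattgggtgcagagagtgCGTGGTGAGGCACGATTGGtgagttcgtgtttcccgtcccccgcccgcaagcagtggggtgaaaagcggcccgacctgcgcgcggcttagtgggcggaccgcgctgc
The element was found for Hspa5, Hsp90b1 and Dnajc3 (3 of 54 members, 5.56%) and for 0.130% of all genes. These 3 genes differed by 0.00 to 0.06 between the arrays.

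The J-domain genes other than Dnajb1 held the widest spread, from -1.69 to 1.47. Of 39 such genes 34 were measured on both arrays, their median was 0.06 and 27 of the 34 lay within 1.5-fold. Towards CD8+ cells, Dnajc27, a Rab-like GTPase with a J domain, followed Dnajc15, with 202 ± 20.4 in CD4+ and 334 ± 33.5 in CD8+ cells (0.90 ± 0.21, 1.87-fold). Its dimmer probes gave 0.86 and 0.45, the same direction at a smaller size. Dnaja4, a cytosolic partner of Hsp70, read 521 ± 52.1 and 728 ± 72.9 (0.66 ± 0.20, 1.58-fold). Dnajc9, a co-chaperone of histones, gave 0.30, and Dnaja1, a cytosolic partner of Hsc70, gave 0.17.

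Towards CD4+ cells, Dnajc6 stood farthest. This gene encodes auxilin, known mainly from neurons, which works with Hsc70 to strip clathrin from vesicles. It read 146 ± 14.9 in CD4+ and 39.9 ± 5.03 in CD8+ cells, a difference of -1.69 ± 0.23 (3.24-fold), and 1.39% of all genes lay at least as far on that side. The CD8+ signal was low, and with the normexp background correction the difference was -0.93 (1.91-fold). Dnajb3, known from the testis, was dimmer still, at 69.0 ± 7.56 and 29.7 ± 4.33 (-1.04 ± 0.26, 2.05-fold, but 1.15-fold with normexp). The direction was kept for both genes in every setting that measured them, whereas the size was not.

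Dnajc4 combined a clear difference with a bright signal. It encodes a J protein with a membrane-spanning stretch and read 3355 ± 336 in CD4+ and 1681 ± 168 in CD8+ cells (-0.82 ± 0.20, 1.76-fold), with a range from -0.87 to -0.68 over all settings on 1 probe. Dnajc12, a co-chaperone of the aromatic amino acid hydroxylases, read 623 ± 62.4 and 399 ± 40.1 (-0.46 ± 0.20, 1.38-fold). Dnajc24, which acts in diphthamide synthesis, gave -0.15. The remaining J-domain genes measured on both arrays lay between -0.12 and 0.16, among them Dnajc5, the cysteine string protein of secretory vesicles, at -0.04 and Dnajc2, a ribosome-bound J protein, at 0.02.

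The genes named as heat shock proteins without belonging to a chaperone family differed in both directions. Hspbp1, an exchange factor that releases nucleotide from Hsp70, read 1231 ± 123 in CD4+ and 1946 ± 195 in CD8+ cells (0.84 ± 0.20, 1.79-fold), and its dimmer probe gave 0.65. Hspbap1, a protein bound to Hspb1, read 4234 ± 423 and 2911 ± 291 (-0.36 ± 0.20). Hspb11, an intraflagellar transport protein, gave 0.01. Of the less common Hsp70 genes, Hspa4l, a relative of Hspa4, gave -0.22 over a range of -0.43 to -0.22 on 3 probes, and Hspa2, known from the testis, gave -0.28 with 65.7 and 47.9.

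Low signals were found for the members assigned here as known mainly from testis, muscle, brain or vessel walls. Most of them were above background on at least 1 array. Dnajc6 (146 in CD4+ cells), named above as a gene of neurons, was not assigned to this list. Of the 13 assigned genes (76.9% above background on at least 1 array, all named genes 76.0%), 5 were above background on both arrays, 4 on the CD4+ array alone, 1 on the CD8+ array alone and 3 on neither. Over all 17176 named genes these counts were 11961, 919, 178 and 4118. On the CD4+ array alone were Hspa1l at a signal of 19.3 against 8.33 (at least 1.16-fold higher in CD4+), Hspa12a at 20.8 against 8.81 (at least 1.25-fold), Dnajc5g at 21.9 against 8.30 (at least 1.31-fold) and Hspb7 at 16.4 against 12.5, for which no fold is given. Dnajc22, of the remaining genes, was at 28.9 against 7.88 (at least 1.74-fold, but 1.05-fold with normexp and 1.08-fold with the series values). On the CD8+ array alone was Dnajb8, at 17.9 against 11.1 (at least 1.57-fold, but 1.18-fold with normexp and 1.25-fold with the series values). With the series values the bounds of Hspa1l and Dnajc5g were 1.08-fold and that of Hspa12a 1.15-fold, so the size of these bounds depends on the processing. Each bound divides the scaled bright signal by the dim array's signal or, where that is larger, by the lowest signal called above background there, which was 12.9 on the CD4+ and 14.7 on the CD8+ array. These signals were all low, the brightest being 28.9 for Dnajc22. The dimmer probes of Hspa12a, Dnajc5g and Hspb7 were not above background on either array, so each of these calls rested on 1 probe. Neither array had a signal well above background for Hspb3, Hspb6, Hspb8, Dnajb7 or Dnajc5b.

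Agreement between probes of the same gene gave a further measure of precision. Of the 36 members with several probes, 30 had at least 2 above background on both arrays, and the probes shared a sign for 19 of the 30. The SD of the difference between probes of a gene was 0.17 over these 30 members and 0.24 over 3972 genes, and between replicate spots of a probe it was 0.16 over 153 probes. Probes lay over 0.5 apart for 2 members, Dnajb9 (above) and Dnajb4, a cytosolic J protein whose probes gave 0.07 and -0.51. Of the 9 members at least 1.5-fold apart, Hspa1a, Dnajc27, Hspbp1 and Dnajb9 had another probe above background on both arrays, and all but Dnajb9 kept their direction on it.

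**Figure D3:**
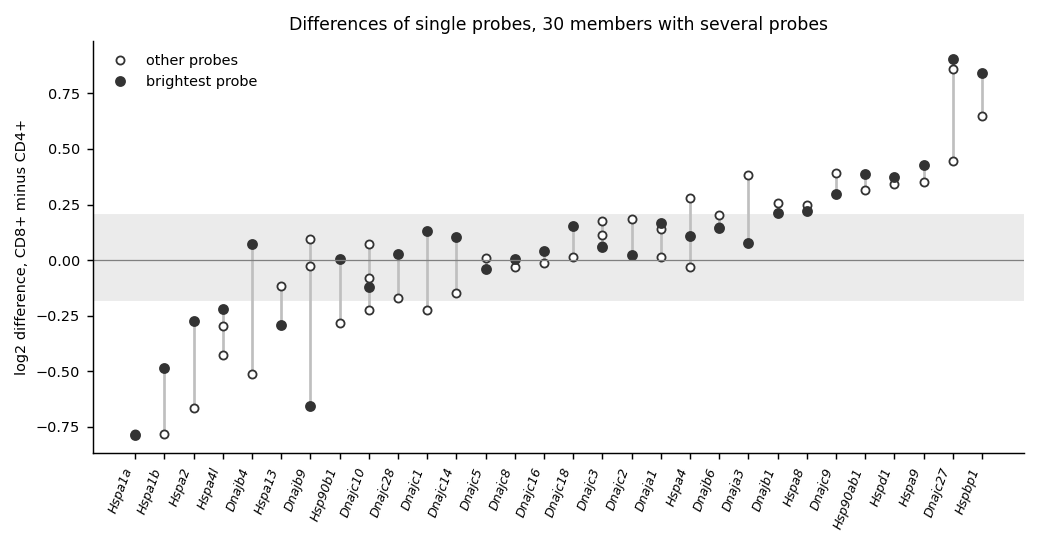
Log2 difference (CD8+ minus CD4+) of every probe for the 30 members with at least 2 probes above background on both arrays, with the probe brightest on the CD4+ array filled and the others open. The grey band is the interquartile range of all genes. The probes of Hspa1a coincide at -0.78, whereas those of Dnajb9 and Dnajb4 lie over 0.5 apart.

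Other processing left the direction of the larger differences as it was. Under scaling to the median, the difference of every gene shifted by 0.14. The sign of a small difference thus depends on the scaling, whereas its distance from the median of all genes does not. The median of the constitutive members fell from 0.16 to 0.09 with quantile normalization and to 0.10 with cyclic loess. Dnajc15, Dnajc27, Hspbp1 and Dnaja4 stayed positive in each of the 11 other settings that measured them, and Hspa1a, Hspa1b, Dnajc4, Dnajc12, Dnajb9, Dnajb3 and Dnajc6 stayed negative.

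**Figure D4:**
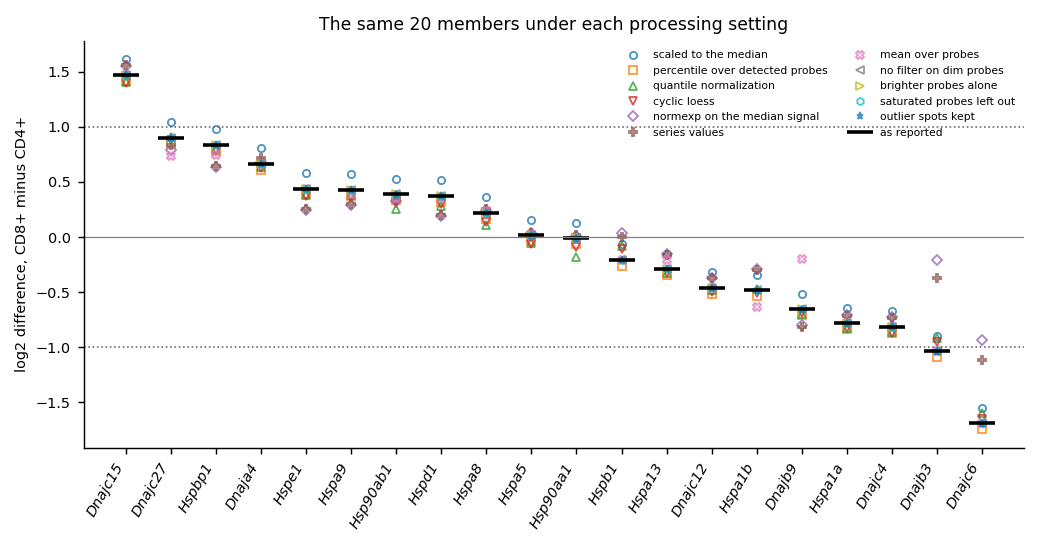
Log2 difference (CD8+ minus CD4+) of 20 members as reported (black bars) and under each of 11 other processing settings (coloured symbols), with dotted lines at 2-fold. Dnajc15 stays above 1 throughout, whereas Dnajb3 and Dnajc6 move towards 0 with the normexp correction and the series values.

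The partners of the members were mostly level as well. Among heat shock factors, Hsf1, the activator of the inducible genes, read 3170 in CD4+ and 3036 in CD8+ cells (0.12), and Hsbp1, a binding protein that restrains it, read 8034 and 4961 (-0.52). Hsf2, Hsf3 and Hsf4 were not above background on either array, and Hsf5 was so on the CD4+ array alone. All 24 co-chaperones of Hsp70 and Hsp90 were measured, with a median of 0.08 and 1 at least 2-fold higher in CD8+ cells, the dim Bag2 (61.3 against 123, 2.26-fold, but 1.61-fold with normexp). Bag3, an Hsp70 co-chaperone of stressed cells, read 1189 and 536 (-0.97, 1.96-fold higher in CD4+), the same side as Hspa1a. The 9 subunits of TRiC, the cytosolic chaperonin for actin and tubulin, had a median of 0.28 and all were positive, from 0.06 for Tcp1 to 0.39 for Cct7, with Cct5 turning negative (-0.11) under normexp. None was 2-fold apart, and the 6 prefoldin genes had a median of 0.12.

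The lists of single compartments gave similar values. The median over 13 genes of endoplasmic reticulum folding was -0.06, and none of them was 1.5-fold apart. In the unfolded protein response list (11 genes, median -0.10), Trib3, a pseudokinase of that response, was 3.39-fold higher in CD4+ cells (334 against 86.9, a difference of -1.76, but -1.06 as the mean over its probes and -1.23 with normexp). Xbp1 was 1.66-fold and Atf6 1.52-fold higher there. The median over 10 mitochondrial folding partners was 0.10, with Trap1, the mitochondrial Hsp90, 1.52-fold higher in CD8+ cells. The immediate early genes, which cells switch on within minutes of stimulation or handling, had a median of -0.30 over 14 genes, with 3 positive. Nr4a1 was 2.34-fold higher in CD4+ cells and the dim Ier3 6.38-fold higher in CD8+ cells (3.08-fold with normexp). The immediate early list thus lay on the same side as Hspa1a and Hspa1b, and its part in their difference was not tested.

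**Figure D5:**
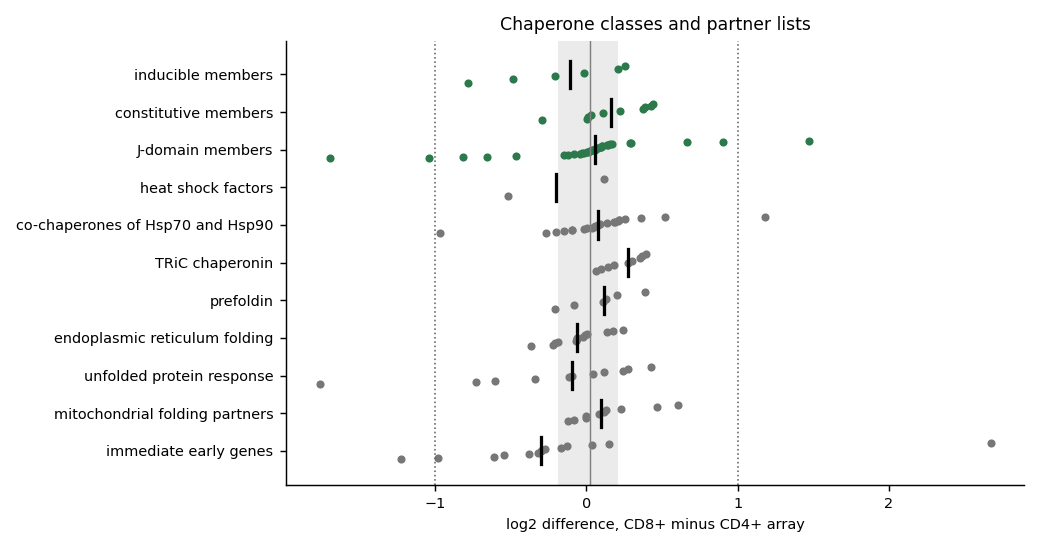
Log2 difference (CD8+ minus CD4+) of the genes above background on both arrays in 3 classes of members (green) and 8 partner lists (grey), with black bars at the medians, the grey band and line at the interquartile range and median of all genes, and dotted lines at 2-fold. TRiC and the constitutive members lie to the right of the line of all genes, and the immediate early genes mostly to its left.

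The labelled cell types were checked against their markers. Cd8a was 105.8-fold higher on the CD8+ array (535 against 49982) and Cd4 was 4.11-fold higher on the CD4+ array (307 against 66.0, 2.58-fold with normexp), and 7 of 7 measured T cell genes were above background on both. Markers of other cell types were present and differed between the arrays. Summed over a list, the signal as a multiple of each array's 75th percentile went from 19.1 (CD4+) to 29.7 (CD8+) for 7 of 7 B cell genes, from 7.48 to 3.21 for 5 of 5 dendritic cell genes and from 31.0 to 25.4 for 7 of 8 macrophage and granulocyte genes. It went from 6.75 to 80.9 for 4 of 4 natural killer genes, nearly all of it Nkg7, which CD8+ T cells also express. The natural killer receptor genes Klrb1c (422 against 73.7) and Ncr1 (81.4 against 16.4) went the other way, higher in CD4+ by 5.06-fold and 4.39-fold (3.14-fold and 1.62-fold with normexp). Klrk1, the remaining receptor gene of that list, was 1.46-fold higher in CD8+ (44.8 against 57.8, 1.445-fold with normexp). The sum went from 5.39 to 3.23 for 5 of 5 plasma cell genes. For 4 platelet genes it was 0.458 and 0.754, with Itga2b above background on the CD8+ array alone. Elane, the remaining granulocyte gene, was not above background on either array. A sum follows its brightest genes, and single genes differed by more. On the scaled values all 5 dendritic cell and all 5 plasma cell genes were higher on the CD4+ array, and all 7 B cell genes on the CD8+ array. With normexp the plasma cell gene Sdc1 turned positive (from -0.46 to 0.12) and the B cell gene Ms4a1 negative (from 0.12 to -0.12). Cd209a was 9.23-fold higher in CD4+ (2.55-fold with normexp), Siglech 6.27-fold (3.26-fold) and Prdm1 4.86-fold (2.75-fold). Of the 7 macrophage and granulocyte genes measured, 2 were higher in CD8+, whereas Lyz2 was 4.49-fold higher in CD4+ (3.66-fold with normexp). The part of these other cell types in the differences of the chaperone genes was not tested.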

How the data were processed

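Total RNA of 2 samples was labelled with Cy3, per the labels. The files the authors deposited hold a processed signal for every spot, an intensity on a linear scale after background subtraction, made with Feature Extraction 10.1.1.1 per the file headers, while the submitters' processing notes name version 9.1. The authors' series values are the median pixel intensity of the deposited files at 45018 of 45018 spots on each array.

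Control spots were left out, as were outlier spots (99 on the CD4+ and 92 on the CD8+ array). From the log2 signal the 75th percentile of its array (43379 non-control spots) was subtracted. Well above background were 63.1% (CD4+) and 58.6% (CD8+) of those spots. Accessions were named through RefSeq's GRCm38.p6 gene table, for names alone because the headers name another build: 24844 probes matched 1 symbol, 0 several and 16330 none. A gene took its brightest probe above background, on both arrays where possible.

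Named were all inducible and constitutive members, those at least 2-fold apart, the 6 largest J-domain differences per direction, members of 1 array or neither, and those with probes over 0.5 apart. Of the list genes the rule named the 3 largest per direction, and fewer are printed here. The members and lists were chosen with earlier results of these data known. The result of 1 marker list is not reported here.

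No p-value was computed, since each group has 1 array. Alternatives were other scalings and normalizations, normexp (offset 50, on the median signal because the files hold no mean signal column), the series values, other probe and spot filters, and other fold thresholds. The computation was tested on simulated data. The tools were R 4.3.3 with limma 3.58.1, and Python 3.11.15 with pandas 2.3.3 and numpy 2.4.6.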

Additional observations from a re-analysis of the deposited data

How the results depend on the processing

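The count of members at least 2-fold higher in CD4+ cells, 2 as reported, depended on the processing. It was 6 at a 1.5-fold threshold and 0 at a 4-fold one, 8 with no filter on dim probes, 0 with normexp and 0 with brighter probes alone. The added genes at 1.5-fold were Dnajc4, Hspa1a, Dnajb9 and Dnajc22, and with no filter Dnajb7, Dnajc5b, Dnajc22, Dnajc5g, Hspa12a and Hspa1l, which were not well above background on the CD8+ array. It was 1 with cyclic loess, 1 with quantile normalization, 1 with scaling to the median and 1 with the series values. The count higher in CD8+ cells, 1 as reported, was 5 at 1.5-fold, where lower bounds count too, 0 at 4-fold and 2 with scaling to the median, where Dnajc27 joined Dnajc15. Every other setting run left both counts as they were.

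The medians ranged from -0.03 to 0.17 for all members, -0.16 to 0.10 for inducible, 0.09 to 0.31 for constitutive and 0.00 to 0.20 for J-domain members. The highest inducible median came from brighter probes alone, which leave out Hspa1b and Hspb1, and it was positive with normexp, the series values and scaling to the median too, the last of which shifts every gene alike. Of the named members with a value, 5 of 32 moved by more than the SD between probes of a gene with normexp, 5 of 34 with the series values, 4 of 34 with no filter, 2 with the mean over probes and 1 with quantile normalization.

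Without replicates only the software's own error and the spread over spots and probes are known, and neither measures the error between arrays. Signals close to background (Dnajb3, Dnajc6, Hspb1, Hspb2) limit how well the size of their differences is known. Whether the probes of Hspa1a and Hspa1b separate these copies was not tested. No paired analysis was possible because each group holds 1 array and the labels carry no replicate numbers.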
